A study of Mus musculus with 33 samples.

Results

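The step from day 8 to day 10 of embryonic stem (ES) cell differentiation was compared in 2 mouse lines, WT and RepB. Its members are 4 polyA RNA-seq libraries, 1 for each line and day, out of 12 RNA libraries and 33 samples in the series, and they were chosen by the line and day in their names. Both lines are ES cells of the hybrid strain CAST/Ei x 129/Sv/Jae. WT carries the genotype label wildtype, and RepB carries a genotype label that names Repeat B of Xist, the RNA that starts silencing of an X chromosome in female cells. The labels do not state the change made at Repeat B, the number of clones behind each line or a sex. In all groups, cells were expanded on irradiated embryonic fibroblast feeders with LIF, freed of feeders, cultured as floating embryoid bodies up to day 4 and then attached to gelatin. The 4 groups are therefore WT day 8, WT day 10, RepB day 8 and RepB day 10, with 1 library each, and no line has a second library on either day.

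Embryoid bodies pass through stages that recall early development. Epiblast-like cells first switch on genes of the primitive streak, the structure from which mesoderm and definitive endoderm emerge, and these genes are then switched off as daughter lineages form. Days 8 to 10 fall in the time when heart muscle, blood vessels, connective tissue and yolk-sac-like endoderm acquire the proteins of their mature functions, such as myosins, collagens and serum carriers. In bulk RNA, fewer cells of a type and less RNA per cell cannot be told apart, and this holds for every gene group below.

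Total counts were 7763633 in WT day 8, 10200004 in WT day 10, 3594551 in RepB day 8 and 3745822 in RepB day 10. The 2 libraries of day 10 correlated at r = 0.987 across genes and those of day 8 at r = 0.974, while the days correlated at 0.947 within WT and 0.957 within RepB. All 4 libraries carry the label ES cell, but the pluripotency factor gene Pou5f1 stood at 788 CPM (counts scaled to the size of each library) in WT and 960 in RepB on day 0, against 60.9 and 110 on day 10. WT day 8 stood apart from the other libraries by gene length. Tested genes were put into 5 equal bins by summed exon length. In the shortest bin (up to 1662 bases), the median gene in WT day 8 lay 0.31 above its mean over 10 libraries, on the scale log2(CPM + 1). In the longest bin (4921 bases and more), it lay 0.27 below that mean, and the other 9 libraries lay between -0.12 and 0.13 in all 5 bins. The median change from day 8 to day 10 ran from -0.34 in the shortest bin to 0.38 in the longest in WT, and from -0.12 to 0.08 in RepB. The share of genes called higher went from 5.51% to 21.9% over the same bins, and the share called lower from 13.8% to 3.33%. The lists below are therefore also counted without WT day 8, and with the trend on exon length taken out of every library. Fits that leave out 1 library call a different share of all genes. Their list counts can therefore not be read against the shares of the full fit. All lists were chosen with earlier results of these data known, so the counts per list are descriptions.

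**Figure D1:**
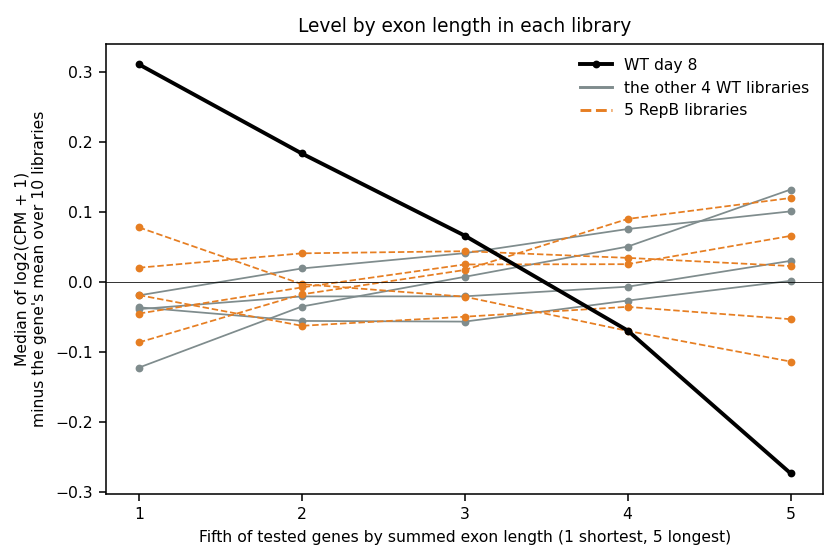
Level by exon length in each of 10 libraries of days 5 to 10. The x axis gives 5 equal bins of the tested genes from shortest to longest summed exons, and the y axis the median over genes of log2(CPM + 1) less the gene's mean over the 10 libraries. The black line, WT day 8, falls from 0.31 to -0.27, while the other 9 lines stay between -0.12 and 0.13.

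Of 13955 genes tested with edgeR's quasi-likelihood test, 3102 (22.2%) changed from day 8 to day 10 at a Benjamini-Hochberg adjusted p under 0.05. Of these, 1810 (13%) rose and 1292 (9.26%) fell. The test used day as a factor and the line as a block, with the other libraries of days 5 to 7 sharing the estimate of spread, so its error is the unevenness of the RepB to WT difference over days and not the spread among repeat cultures. Rises were larger than falls: 979 genes rose at least 2-fold against 289 that fell at least 2-fold, and 144 rose at least 8-fold against 31. The median log2 change was 1.07 among the genes that rose, -0.68 among those that fell and 0.01 over all tested genes. Without any test, 684 genes (4.9%) were at least 2-fold higher in both lines and 117 (0.838%) at least 2-fold lower in both, on log2(CPM + 1). Leaving out WT day 8 reduced the count of changed genes to 1509, of which 1318 were shared with the full fit. Without WT day 10 it was 1072, without RepB day 10 it was 1145, and without RepB day 8 it was 5073.

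All 1810 genes that rose had a positive change in both lines, and 1287 of the 1292 that fell had a negative change in both, which the test itself favours. Over all tested genes the sign agreed in 72.4%, and the changes in WT and RepB correlated at r = 0.72 (rho = 0.62) across genes, which are not independent replicates. The WT steps were somewhat wider. The median change of the genes that rose was 1.09 in WT and 0.91 in RepB, and that of the genes that fell was -0.73 in WT and -0.57 in RepB. On day 8 RepB lay nearer to the levels of day 10 than WT: the genes that rose were at a median of 0.29 above WT on that day and 0.12 above WT on day 10, and the genes that fell were 0.21 below (-0.21) on day 8 and 0.06 below (-0.06) on day 10. Since day 8 enters both the change and this difference, and WT day 8 is the library that stands apart by exon length, these values describe the libraries and do not test a lead of one line.

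**Figure D2:**
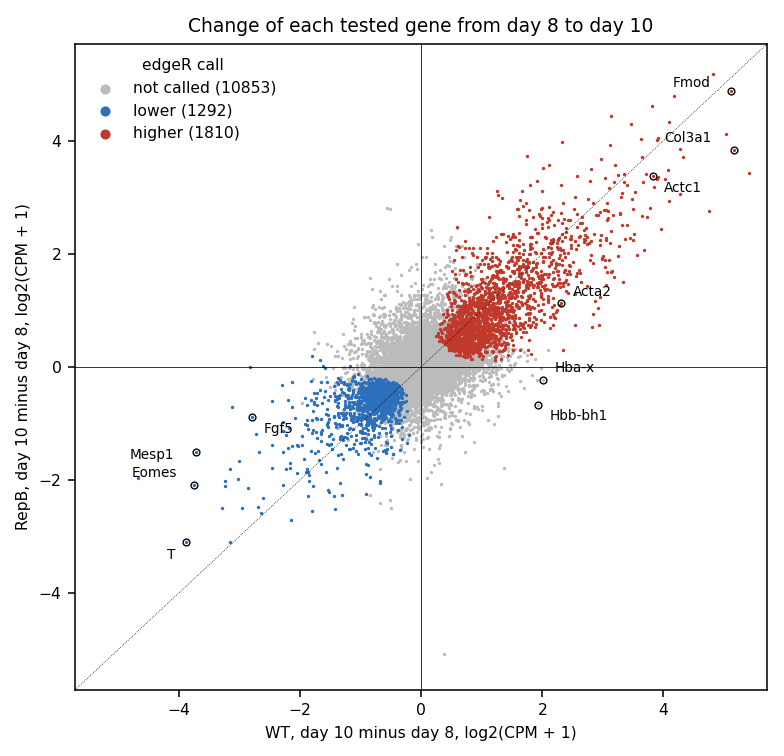
Change from day 8 to day 10 of each of 13955 tested genes, in WT on the x axis and in RepB on the y axis, both as a difference of log2(CPM + 1). Red points are the 1810 genes that rose, blue points the 1292 that fell and grey points the rest, the dotted line marks equal change, and ringed genes are named. Hba-x and Hbb-bh1 lie below the horizontal line at 0 but far to the right.

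The genes of the extracellular matrix gave the broadest rise. Of 25 genes for interstitial collagen and its partners, the matrix laid down by fibroblasts and other connective tissue cells, 21 rose and 0 fell, with a median log2 change of 1.96. The count was 20 of 25 without WT day 8, 22 with the length trend removed and 18 to 22 over the 4 fits that each leave out 1 library. The summed level of the list went from 5779 to 20615 CPM in WT and from 9599 to 28034 CPM in RepB. On day 7 it had been 8490 CPM in WT and 8369 in RepB, so the WT rise starts from a dip in WT day 8. The basement membrane and endothelium lists below also dipped in WT from day 7 to day 8 (4308 to 3615 and 425 to 259 CPM), but not in RepB. WT day 8 is the library that stands apart by exon length, and its part in these dips was not tested. Col3a1 encodes the chain of type III collagen, a fibril of soft connective tissue. It stood at 38.6 CPM in WT and 155 in RepB on day 8, and at 1417 and 2235 CPM on day 10. Both day 10 libraries lay far above both day 8 libraries, with a log2 change of 4.46 (SE 0.33, 22-fold, adjusted p = 2.74e-05 by edgeR). Its first exon is listed at chr1:45368383-45368677 in mm9, on the plus strand. The change was 5.16 in WT and 3.84 in RepB. For Col1a2, a chain of type I collagen, the 2 libraries of day 8 held 192 (WT) and 570 (RepB) CPM and those of day 10 held 2423 and 3628, and the log2 change was 3.07 (SE 0.34, adjusted p = 0.000229). Col1a1, its partner chain, was already at 951 and 1804 CPM on day 8 and reached 3554 and 5803 on day 10, a log2 change of 1.78 (SE 0.20, adjusted p = 0.000235). Postn, the matricellular protein periostin, gave 60.9 CPM in WT and 338 in RepB on day 8 against 1664 and 2281 on day 10. In all 4 of these genes RepB exceeded WT on both days, and the groups of libraries by day did not overlap.

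Small leucine-rich proteoglycans, which coat and space collagen fibrils, were among the genes with the largest rises of all. Dcn (decorin) went from 0.892 CPM in WT and 1.46 in RepB to 33.2 and 66.7, a log2 change of 5.42 (SE 0.55, adjusted p = 0.000131). Lum (lumican) went from 1.66 and 5.25 CPM to 50.5 and 89.8, a log2 change of 4.49 (SE 0.28, adjusted p = 1.87e-05). Fmod (fibromodulin) had 0 counts in WT day 8 and 1.17 CPM in RepB day 8, and 33.5 and 62.7 CPM on day 10. Against a floor of 3 counts in WT day 8, Fmod was at least 87.7-fold higher in WT on day 10. Matrix remodelling enzymes and their inhibitors rose too: 13 of 16 tested members of that list rose and 0 fell, with a median of 0.87 (10 without WT day 8, 14 with the length trend removed, 8 without RepB day 10 and 6 without WT day 10). Adamts1, a protease that cuts proteoglycans, went from 17.5 CPM in WT and 24.5 in RepB to 138 and 164, and Timp3, a tissue inhibitor of metalloproteinases, from 30.1 and 58 to 172 and 262. The gelatinase gene Mmp2 was high on both days, at 308 and 371 CPM and then 639 and 651, with a log2 change of 0.93 (SE 0.14, adjusted p = 0.000986). Among basement membrane genes, the sheet under epithelia and around vessels, 6 of 11 rose (4 without WT day 8, 6 with the length trend removed, 3 without RepB day 10, 10 without RepB day 8). Lama1 rose from 68.4 and 122 CPM to 252 and 336, and Nid1 from 103 and 228 to 442 and 546. The type IV collagen gene Col4a1 was at 800 (WT) and 940 (RepB) CPM on day 8 and 1009 and 1142 on day 10, and its log2 change of 0.30 (SE 0.22) did not pass the test (adjusted p = 0.339).

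**Figure D3:**
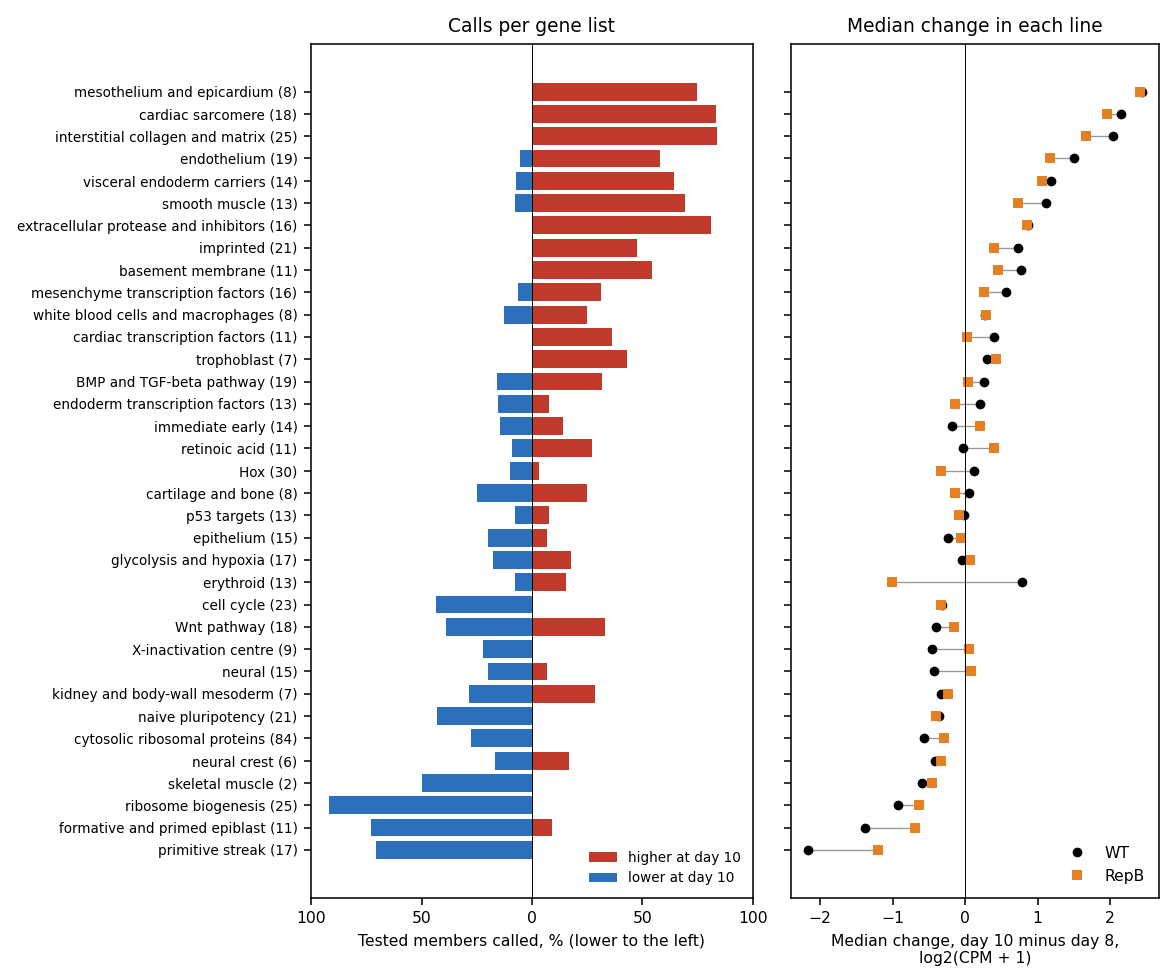
Calls and median changes of 35 gene lists, with the number of tested members in brackets. In the left panel, red bars to the right give the percentage of tested members higher at day 10 and blue bars to the left the percentage lower (edgeR, adjusted p under 0.05). The right panel gives the list's median change in WT (black circles) and RepB (orange squares) on log2(CPM + 1). The background over all tested genes is 13% higher and 9.26% lower, and the erythroid list has medians of 0.78 in WT and -1.01 in RepB.

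Irradiated fibroblast feeders also make these collagens. Col3a1 stood at 85.2 CPM in WT and 99.1 in RepB on day 0, before differentiation, and at 1.69 to 6.37 CPM over the 6 libraries of days 5 to 7. For Col5a1, a fibril collagen gene with many reads assigned to a parental allele, the CAST/Ei (cas) share was 46.2% of 775 allelic counts in WT day 8 and 47% of 3651 in WT day 10, and 43.6% of 550 and 48.9% of 1772 in RepB. Col1a1 gave a cas share of 65.3% and 56.4% in WT and 59.4% and 52.7% in RepB. For Col3a1 the cas share was 0% of 23 allelic counts and 2.47% of 1661 in WT, and 1.82% of 55 and 2.41% of 955 in RepB. Pooled over the list, it was 18.8% in WT day 8 and 22.1% in WT day 10, and 19.9% and 23.8% in RepB, against 20.5%, 19.7%, 20.2% and 19.8% over all autosomal genes in the same 4 libraries. The cas share thus differed widely between collagen genes, and Col5a1 and Col1a1 are not typical of the list. The strain of the feeders is not given in the sources used here, and their part in these levels was not tested.

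Heart muscle genes formed the group with the next highest share of rises. Of 24 genes of the cardiac sarcomere list, the contractile unit of heart muscle with its calcium-handling partners, 18 were tested, 15 rose and 0 fell, and the median log2 change was 2.50. The count was 14 without WT day 8, 15 with the length trend removed, 11 without WT day 10 and 16 without either RepB library. Myh6, the myosin heavy chain of the atria, went from 6.11 CPM in WT and 1.75 in RepB to 88.1 and 35, a log2 change of 3.84 (SE 0.39, adjusted p = 0.000138). Mybpc3, a myosin-binding protein that sets filament spacing, went from 0.892 and 0.583 CPM to 31 and 16.7, a log2 change of 4.98 (SE 0.40, adjusted p = 4.72e-05). Actc1, the actin of heart muscle, went from 9.43 and 5.54 CPM to 146 and 66.7, and Myh7, the slower myosin heavy chain, from 31.5 and 7.58 to 160 and 78.5. In these 4 genes WT exceeded RepB on both days, the reverse of the collagens. Summed over the list, the level went from 293 to 1212 CPM in WT and from 219 to 727 in RepB. Tnni1, a troponin of slow and embryonic muscle, went from 24.3 and 25.1 CPM to 108 and 80.8, and on day 6 it had been at 0.203 and 1.24. Tnni3, the adult cardiac troponin I, and Tnnc1 were tested and gave log2 changes of -0.64 and -0.26, neither of which passed the test.

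The regulators of heart formation moved much less than its contractile genes. Of 11 cardiac transcription factor genes 4 rose and 0 fell, with a median of 0.41 (3 rose without WT day 8 and 4 with the length trend removed). Hand2 went from 192 CPM in WT and 225 in RepB to 485 and 444, Mef2c from 10.3 and 10.5 to 45.4 and 34.7, and Gata6 from 119.2 and 168 to 301 and 271. Nkx2-5, an early marker of the heart field, was at 21.5 and 14.9 CPM on day 8 and 16.5 and 11.3 on day 10 (log2 change -0.38, adjusted p = 0.392). Hand1 was at 991 and 1545 CPM and then 964 and 724.6, so that its WT libraries were near each other while RepB day 10 was the lowest (adjusted p = 0.115). For 10 of these 11 genes the step from day 8 to day 10 was lower than the step from day 6 to day 8, by the test of pace described further on. Skeletal muscle genes did not form such a group: 2 of 9 listed were tested, and Acta1 fell from 32.7 and 30.6 CPM to 17.6 and 11.6 (adjusted p = 0.0246), a call lost without WT day 8 (log2 -0.80, adjusted p = 0.18) and without RepB day 10 (-0.71, 0.173).

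The promoters of the contractile genes are shown because several hold a CArG box, the motif that serum response factor, a regulator of muscle actin genes, is known to bind. The motif was searched by its standard form with 6 A or T bases between its outer letters, which reads alike on both strands, in 300-base windows from 250 bases before to 50 bases after the annotated start in RefSeq, build GRCm38.p6. Of the 18 tested sarcomere genes 17 matched a promoter by symbol, and 4 of these 17 (Actc1, Myl3, Myl7 and Ldb3) held the motif, in 5 of 22 windows (22.7%). The windows of Ldb3 overlap, so 1 site may be counted in both. Of all 32851 RefSeq windows, 535 (1.63%) held it, and of the 13488 windows of tested genes 175 (1.3%). The motif was not limited to genes that rose: among primitive streak genes, which fell, it was in 2 of 13 windows (15.4%, Mesp1 and Mesp2), and the skeletal muscle actin gene Acta1, which also fell, held it. Of the windows of all genes that rose 1.85% held it, and of those that fell 1.24%. Among smooth muscle genes Myl9 held it, with 10 of 13 matched. Actc1, Myl7 and Myl9 were picked after their values were seen and are given 5′ to 3′ on the gene's strand, with the CArG box in capitals. They lie at chr2:114052826-114053125 (minus strand), chr11:5898733-5899032 (minus strand) and chr2:156775214-156775513 (plus strand).
Actc1: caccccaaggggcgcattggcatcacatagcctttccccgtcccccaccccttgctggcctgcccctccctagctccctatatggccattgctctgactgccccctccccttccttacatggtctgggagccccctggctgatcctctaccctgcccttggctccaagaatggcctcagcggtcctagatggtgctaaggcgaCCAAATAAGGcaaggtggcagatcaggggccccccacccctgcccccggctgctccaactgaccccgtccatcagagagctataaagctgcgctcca
Myl7: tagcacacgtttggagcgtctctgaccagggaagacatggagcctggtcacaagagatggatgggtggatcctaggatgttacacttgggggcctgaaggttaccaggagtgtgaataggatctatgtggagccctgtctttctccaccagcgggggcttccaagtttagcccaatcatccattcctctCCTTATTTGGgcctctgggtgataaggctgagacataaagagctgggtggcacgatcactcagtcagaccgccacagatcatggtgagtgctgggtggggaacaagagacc
Myl9: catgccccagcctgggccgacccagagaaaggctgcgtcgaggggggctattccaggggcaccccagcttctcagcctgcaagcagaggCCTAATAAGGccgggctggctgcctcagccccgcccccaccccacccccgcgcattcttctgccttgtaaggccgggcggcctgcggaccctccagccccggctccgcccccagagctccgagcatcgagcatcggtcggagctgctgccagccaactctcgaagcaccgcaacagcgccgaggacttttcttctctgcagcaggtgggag
The box starts 47 bases before the start site in Actc1, 61 in Myl7 and 161 in Myl9. Myl7, the atrial regulatory light chain, went from 17.6 CPM in WT and 3.5 in RepB to 79.3 and 52.5 (log2 change 2.54, SE 0.44, adjusted p = 0.00264), and Myl9, the smooth muscle light chain, from 43.2 and 55.1 to 94.4 and 92.4 (0.95, SE 0.18, adjusted p = 0.00434). Both genes kept the call without WT day 8 and with the length trend removed. Neither kept it without each of the 4 libraries in turn. A match of letters is a description and says nothing of binding in these cells.

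Of 13 smooth muscle genes 9 rose and 1 fell, with a median of 0.95 (6 and 0 without WT day 8, 10 and 1 with the length trend removed). Acta2, the alpha actin of smooth muscle, was at 401 CPM in WT and 1004 in RepB on day 8 and at 1999 and 2189 on day 10, a log2 change of 1.67 (SE 0.29, adjusted p = 0.0025). Actg2, the gamma actin of visceral smooth muscle, went from 0.637 and 4.67 CPM to 30.5 and 46, and Des, the intermediate filament desmin, from 42.5 and 35 to 150 and 143. Cnn1, the thin-filament protein calponin, was the member that fell, from 37.6 CPM in each line to 23.4 in WT and 18.6 in RepB (log2 change -0.80, adjusted p = 0.0146), and it was not called without WT day 8 or without RepB day 10. Cald1, at 1038 (WT) and 1305 (RepB) CPM on day 8 and 1430 and 1493 on day 10, did not pass the test (adjusted p = 0.0677).

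**Figure D4:**
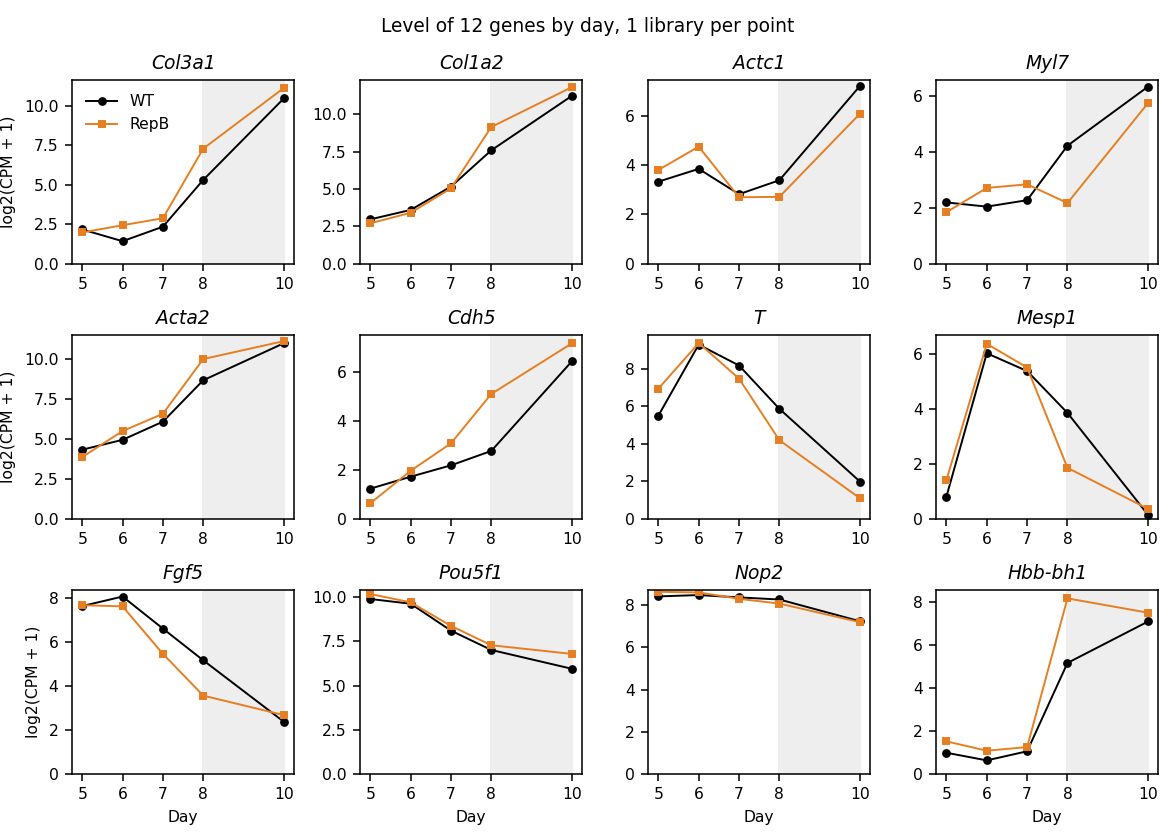
Level of 12 genes on days 5, 6, 7, 8 and 10 as log2(CPM + 1), with 1 library per point, WT in black and RepB in orange, and the step from day 8 to day 10 shaded. Col3a1, Col1a2, Actc1, Myl7, Acta2 and Cdh5 climb over the shaded interval in both lines, T, Mesp1, Fgf5, Pou5f1 and Nop2 descend, and Hbb-bh1 climbs in WT and descends in RepB.

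The coelomic lining and the outer layer of the heart contributed the highest median of any list. Of 8 tested genes for mesothelium and epicardium, 6 rose and 0 fell, with a median of 2.72 (5 rose and 1 fell without WT day 8, 6 and 0 with the length trend removed). Upk1b, a tetraspanin of mesothelium and urothelium, had 0.764 CPM in WT and 0.875 in RepB on day 8 and 48.8 and 67 on day 10, a log2 change of 6.07 (SE 0.33, adjusted p = 1.87e-05). Upk3b, its membrane partner in mesothelium, went from 1.66 and 6.12 CPM to 86.1 and 123. Tbx18, a transcription factor gene of the epicardium, went from 0.255 and 0.292 CPM to 6.9 and 7.06, and Wt1, which acts in epicardium and kidney precursors, from 6.75 and 7.58 to 35.5 and 38.1. Lrrn4, a mesothelial surface protein, went up in WT (68.1 to 105 CPM) and down in RepB (137 to 91), and its log2 change of -0.02 did not pass the test. Among 16 mesenchyme transcription factor genes 5 rose and 1 fell (2 and 1 without WT day 8 or WT day 10, 7 and 1 with the length trend removed, 3 and 1 without RepB day 10, 8 and 1 without RepB day 8). The gene that fell was Foxf1, a regulator of lateral plate and visceral mesoderm, from 56.4 and 93.9 CPM to 22.1 and 18.6 (log2 change -1.78, SE 0.21, adjusted p = 0.000355). Fendrr, a long noncoding RNA that neighbours Foxf1, fell from 12 and 16 CPM to 3.86 and 1.98 (adjusted p = 0.00181).

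Vessel genes rose while their early inducer fell. Of 19 endothelial genes, 11 rose and 1 fell, with a median of 1.47 (8 and 1 without WT day 8, 11 and 0 with the length trend removed). Cdh5, the cadherin of endothelial junctions, was at 5.86 CPM in WT and 33.5 in RepB on day 8 and at 86.5 and 144 on day 10 (log2 change 2.84, SE 0.39, adjusted p = 0.000732). Tie1 and Tek, receptors of vessel maturation, went from 3.69 and 10.8 CPM to 46 and 65.8 and from 10.6 and 36.5 to 105 and 111. Plvap, the protein of endothelial fenestral diaphragms, went from 4.08 and 10.8 CPM to 41.9 and 79.1. RepB was above WT in all 4 of these genes on both days, and the day 10 libraries all lay above the day 8 libraries. Emcn had 0 counts in WT day 8 and 0.875 CPM in RepB day 8, then 13.8 and 29.4 CPM, at least 36.2-fold higher in WT against a floor of 3 counts, and DESeq2 did not call it (adjusted p = 0.364). Kdr, the VEGF receptor that already marks the earliest vessel precursors, was at 59.1 and 90.7 CPM and then 100 and 108 (adjusted p = 0.0521). Etv2, a transient inducer of blood and vessel fate, went the other way, from 7.39 and 14.6 CPM to 4.97 and 4.80 (log2 change -1.03, adjusted p = 0.0343), and it was called lower without WT day 8 but not with the length trend removed or without any of the other 3 libraries.

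Erythroid genes had median changes of opposite sign in the lines, a difference that was not tested. Other lists had this too, with medians closer together, such as Hox genes (0.13 in WT and -0.33 in RepB) and neural genes (-0.43 and 0.08). The summed level of the erythroid genes went from 419 to 500 CPM in WT and from 1061 to 807 in RepB. Cardiac transcription factors parted in summed level as well, from 1646 to 2279 CPM in WT and from 2338 to 1859 in RepB. So did trophoblast genes, from 1180 to 1246 CPM in WT and from 1776 to 1102 in RepB. Of 13 tested erythroid genes 2 rose and 1 fell (1 and 4 without WT day 8, 2 and 1 with the length trend removed, 5 and 1 without RepB day 8), and the median change was 0.78 in WT and -1.01 in RepB. Hbb-bh1, an embryonic beta-like globin, went from 34.6 to 135 CPM in WT and from 285 to 179 in RepB. Hba-x, the embryonic alpha-like globin, went from 51.2 to 209 CPM in WT and from 416 to 353 in RepB. RepB thus held more of both globins on both days, and the lines were nearer each other on day 10. Neither passed the test (adjusted p = 0.41 and 0.224), which takes line differences as error. Without WT day 8 the Hbb-bh1 change was -0.65 with an adjusted p of 0.0152. Hbb-y, another embryonic globin gene, rose in both lines, from 2.93 to 36.6 CPM in WT and from 26 to 117 in RepB (log2 change 2.73, SE 0.33, adjusted p = 0.000367). Globin genes are close copies of one another, and reads shared between them could be split by the counting. Car2, a carbonic anhydrase of red cells and other tissues, fell from 287 and 166 CPM to 51.5 and 62.7 (adjusted p = 0.0005). Of 8 tested genes of white blood cells, 2 rose and 1 fell, and the counts were the same without WT day 8 and with the length trend removed. Csf1r, the macrophage growth factor receptor, rose from 1.02 and 1.46 CPM to 8.12 and 10.5, Pf4 rose from 0.255 and 0.583 to 2.84 and 5.93, a call lost without WT day 10 (0.0743) and without RepB day 10 (0.0584), and Runx1, a blood stem cell regulator, fell from 36 and 44 to 17.9 and 19.5.

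The serum carriers made by yolk-sac endoderm and later by liver rose in most of their tested members. Of 14 tested carrier genes 9 rose and 1 fell, with a median of 1.41 (7 and 0 without WT day 8, 9 and 0 with the length trend removed, 5 and 0 without RepB day 10). Afp, alpha-fetoprotein, went from 1.78 CPM in WT and 4.67 in RepB to 31.3 and 47.5 (log2 change 3.74, SE 0.34, adjusted p = 0.000119). Rbp4, the plasma retinol carrier, went from 10.3 and 22.7 CPM to 93.3 and 161, and Apoa1, the main protein of high-density lipoprotein, from 2.93 and 14.3 to 29.7 and 76. RepB was higher than WT in these 3 genes on both days. Apoe went from 773 and 835 CPM to 487 and 700 (log2 change -0.46, adjusted p = 0.0347), a call lost with the length trend removed (adjusted p = 0.108), without WT day 8 (0.138) and without WT day 10 (0.291) or RepB day 10 (0.0741). Among 13 endoderm genes of transcription and patterning 1 rose (Gata6) and 2 fell (Cxcr4 and Cdx2, a receptor and a factor also used in mesoderm), with 1 and 3 without WT day 8 and 2 and 2 with the length trend removed. Gata4 was at 129 CPM in each line on day 8 and 149 and 131 on day 10. Epithelial genes were mostly not called: of 15, Krt7 rose and Krt8, Krt18 and Cldn7 fell (1 and 1 without WT day 8 and with the length trend removed), and the cadherin gene Cdh1 was at 254 and 341 CPM on day 8 and 239 and 328 on day 10. Krt8, a keratin of simple epithelia, fell from 882 and 900 CPM to 525 and 512 (log2 change -0.78, adjusted p = 0.00676), and the call was lost without RepB day 10 (adjusted p = 0.0921). Krt7 was not called without WT day 10 (adjusted p = 0.086), and the calls of Krt18 and Cldn7 were lost without WT day 8, WT day 10 or RepB day 10 and with the length trend removed (adjusted p of 0.0605 to 0.318).

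Primitive streak genes gave the deepest fall. Of 17 tested, 12 fell and 0 rose, with a median of -2.78 (7 fell without WT day 8, 12 with the length trend removed, 4 without WT day 10 and 8 without RepB day 10). T (brachyury), the transcription factor gene of the streak and notochord, was at 57.1 CPM in WT and 17.2 in RepB on day 8 and at 2.94 and 1.13 on day 10. Its log2 change was -4.03 (SE 0.75, 16.3-fold lower, adjusted p = 0.00398), and it was -2.68 without WT day 8 (adjusted p = 0.0602) and -5.01 without WT day 10 (adjusted p = 0.0584). Mesp1, which marks the earliest heart and head mesoderm, went from 13.5 and 2.62 CPM to 0.101 and 0.283 (log2 change -5.83, adjusted p = 0.00207, and 0.0777 without WT day 10). Eomes, a T-box gene of streak and definitive endoderm, went from 119.2 and 37.9 CPM to 7.92 and 8.19 (log2 change -3.34, adjusted p = 0.00207, and 0.0508 without WT day 10). Gsc, a homeobox gene of the anterior streak, went from 14.3 and 4.67 CPM to 1.12 and 0.283 (adjusted p = 0.000821). In these 4 genes WT was above RepB on day 8, so that WT had the longer way down. On day 10 none of these genes passed 8.19 CPM in either line. Mesp1 in both libraries of day 10 and Gsc in RepB day 10 lay below 3 counts (0.304 CPM in WT, 0.847 in RepB). The size of their falls is therefore uncertain. Ligands of the streak fell as well: Fgf8 went from 83.7 and 31.2 CPM to 8.02 and 6.50, and Wnt3 from 44.5 and 25.4 to 9.13 and 7.06. Fgf3, a secreted growth factor of streak and mesoderm, was at 7.90 CPM in WT and 7.58 in RepB on day 8 and had 0 counts in both libraries of day 10, at least 26-fold lower in WT and at least 8.96-fold lower in RepB against a floor of 3 counts per library. Cdx2, a caudal homeobox gene, went from 71.8 and 67.1 CPM to 23.5 and 17.8 (log2 change -1.73, SE 0.16, adjusted p = 9.12e-05), and its 2 lines differed little on either day. Tbx6 and Cdx1 were not called, with log2 changes of 0.06 and 0.04.

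Genes of the formative epiblast fell by less. Of 11, 8 fell and 1 rose, with a median of -1.12 (5 fell without WT day 8, 8 with the length trend removed and 3 without WT day 10). Fgf15 went from 28.7 CPM in WT and 23.6 in RepB to 3.86 and 3.96 (log2 change -2.76, SE 0.22, adjusted p = 4.31e-05). Dnmt3b, the DNA methyltransferase of epiblast cells, went from 236 and 208 CPM to 73.9 and 83.1 (-1.50, SE 0.21, adjusted p = 0.000732). Its relative Dnmt3a was the member that rose, from 168 and 172 CPM to 287 and 339 (0.88, SE 0.15, adjusted p = 0.002). Fgf5 went from 34.9 and 10.8 CPM to 4.16 and 5.37 (adjusted p = 0.00368, with 0.0821 without WT day 8 and 0.132 without WT day 10). Of 21 naive pluripotency genes 9 fell and 0 rose, with a median of -0.45 (7 without WT day 8, 7 with the length trend removed, 5 without RepB day 10 and 1 without WT day 10). The list is not limited to the naive state. It also holds general pluripotency genes such as Pou5f1, Sox2, Utf1 and Tdgf1, and these were among the genes that fell. The calls of Sox2 and Utf1 were each lost without WT day 8 and without WT day 10. Pou5f1 went from 129 and 155 CPM to 60.9 and 110 (log2 change -0.78, SE 0.17, adjusted p = 0.00916 by edgeR). The WT library of day 10 was the lowest, and without it the change was -0.47 (adjusted p = 0.13). Tbx3, which also acts in mesoderm, went from 154 and 172 CPM to 83.1 and 78.3 (adjusted p = 0.0042, and 0.0692 without RepB day 10).

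Growth machinery moved with this fall. A list of 25 ribosome biogenesis genes, which encode nucleolar proteins that make and fold ribosomal RNA, was put together after the values were seen and is therefore a description: 23 fell and 0 rose, with a median of -0.79 (17 fell without WT day 8, 23 with the length trend removed, 10 without WT day 10 and 13 without RepB day 10). Wdr12, a partner of Bop1 in rRNA processing, went from 40.9 CPM in WT and 32.7 in RepB to 18.1 and 17.5 (log2 change -1.06, SE 0.17, adjusted p = 0.00149). Nolc1, a nucleolar scaffold, went from 444 and 448 CPM to 217 and 240, and Bop1, which processes the large-subunit rRNA, from 116 and 95.4 to 46.8 and 53.7. In these 3 genes the lines differed little on either day and the days did not overlap. Cytosolic ribosomal protein genes also had more falls than rises (23 and 0 of 84, median -0.46), but these short genes are the ones that the length trend touches. The count was 10 fallen and 2 risen with the trend removed, 6 and 4 without WT day 8, 3 and 1 without RepB day 10, and 55 and 0 without RepB day 8. The fits without 1 library each called a different share of all genes, so their counts here cannot be set against the shares of the full fit. Ribosomal protein genes have many near-identical copies, so their counts are uncertain. Of 23 cell cycle genes 10 fell and 0 rose (9 without WT day 8, 11 with the trend removed, 2 without WT day 10 and 3 without RepB day 10). The 10 that fell were Mcm2, Mcm3, Mcm5, Mcm6, Mcm7, Cdc6, Pcna, Rrm2, Tyms and Cdc20, of which Cdc20 acts in mitosis and the others in DNA replication or nucleotide supply. Mcm7, a subunit of the replicative helicase, went from 277 and 265 CPM to 175 and 154 (adjusted p = 0.0547 without RepB day 10), and Cdc6, its loader, from 82.8 and 84 to 44.1 and 44.9 (log2 change -0.91, SE 0.13, adjusted p = 0.00075). Mki67 and Top2a, mitotic genes, gave log2 changes of 0.10 and 0.04 and did not pass the test.

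Signalling genes were split. In the Wnt list of 18 genes 6 rose and 7 fell (6 and 5 without WT day 8, 6 and 7 with the length trend removed, 6 and 2 without RepB day 10). Those that rose included Wnt2, a ligand of heart and lung mesoderm, from 10.1 CPM in WT and 8.75 in RepB to 38.3 and 40.7, and Sfrp1, a secreted Wnt inhibitor, from 55.7 and 24.5 to 142 and 202. Tcf7, a Wnt target and effector, fell from 150 in each line to 87.8 and 74.6 (log2 change -0.88, SE 0.13, adjusted p = 0.00086). In the list for BMP and TGF-beta, 6 of 19 rose and 3 fell (4 and 2 without WT day 8, 6 and 3 with the length trend removed, 2 and 2 without WT day 10, 4 and 1 without RepB day 10). Tgfbi, a matrix protein induced by TGF-beta, went from 26.5 and 50.4 CPM to 165 and 227 (log2 change 2.41, SE 0.17, adjusted p = 2e-05). Id3, a BMP target, went from 297 and 209 CPM to 151 and 92.7 (-1.05, SE 0.18, adjusted p = 0.00247), and Bmp4 was at 436 and 322 and then 280 and 268 (adjusted p = 0.186). In the retinoic acid list, 3 of 11 rose and 1 fell, with a median of 0.08. The member that fell was Cyp26a1, which breaks down retinoic acid, from 40.5 and 25.4 CPM to 4.36 and 3.67 (-3.03, SE 0.31, adjusted p = 0.000137 by edgeR). Of 30 tested Hox genes, 1 rose and 3 fell, with 0 and 1 without WT day 8, 1 and 3 with the length trend removed, 0 and 2 without WT day 10, and 0 and 0 without RepB day 10.

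Imprinted genes, which are expressed from 1 parental copy and many of which regulate fetal growth, tended upward: 10 of 21 rose and 0 fell, with a median of 0.60 (6 without WT day 8, 12 with the length trend removed, 5 without WT day 10 and 6 without RepB day 10). Plagl1, a zinc-finger regulator of other imprinted genes, went from 55.7 CPM in WT and 252 in RepB to 2412 and 2704 (log2 change 4.20, SE 0.49, adjusted p = 0.000306). Dlk1, a Notch-like surface protein of mesenchyme, went from 37.6 and 42 CPM to 187 and 208 (2.32, SE 0.17, adjusted p = 2.62e-05). Plagl1 differed between the lines on day 8 and hardly on day 10, while Dlk1 was alike in both lines on both days. H19, the noncoding RNA of the Igf2 locus, was among the most abundant transcripts on both days, at 6140 and 10076 CPM and then 6304 and 9543, and gave a log2 change of -0.02 (adjusted p = 0.941).

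The step was also set against the equally long step from day 6 to day 8, in the same fit. The change of pace is the log2 change from day 8 to day 10 less that from day 6 to day 8, and since day 8 enters it with double weight it leans on the day 8 libraries. It differed from 0 in 1291 genes (9.25%), positive in 578 (4.14%) and negative in 713 (5.11%). Without WT day 8 the count was 930, without WT day 10 it was 726, without RepB day 10 it was 511 and without RepB day 8 it was 3130. Of the genes that rose from day 8 to day 10, 281 had a positive pace and 82 a negative one, and of those that fell, 17 and 198. The change from day 8 to day 10 is itself a term of the pace, so matching signs were favoured in advance. Dcn belonged to the genes that set in after day 8, with 1.90 CPM in WT and 0.553 in RepB on day 6, 0.892 and 1.46 on day 8, and 33.2 and 66.7 on day 10 (pace 5.80, SE 1.20, adjusted p = 0.0144). Kcnk3, a potassium channel gene, followed the same course, at 0.542 and 0.138 CPM, 0.382 and 0.292, and 22.5 and 25.1 (6.17, SE 1.45, adjusted p = 0.0251 by edgeR). Its RepB values on days 6 and 8 lay below 3 counts (0.43 and 0.835 CPM before TMM scaling), so the size of its pace is uncertain. Actc1 dipped before it rose, from 13.3 and 25.7 CPM on day 6 to 9.43 and 5.54 on day 8 (5.03, SE 0.82, adjusted p = 0.00435).

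In other genes the step from day 6 to day 8 was the larger one or ran upward before a fall. Snai2, a mesenchyme transcription factor gene, was at 0.406 CPM in WT and 0.277 in RepB on day 6, 60.6 and 109 on day 8 and 127 and 122 on day 10 (pace -7.11, SE 0.50, adjusted p = 2.11e-05). Pyy, a peptide hormone gene, had a peak at day 8, with 0.609 and 0.277 CPM, 35 and 38.8, and 8.93 and 8.76 (-8.20, SE 0.46, adjusted p = 9.23e-06 by edgeR). In RepB day 6, Snai2 and Pyy lay below 3 counts (0.43 CPM before TMM scaling), so the size of their pace is uncertain. Hoxd9 peaked as well, at 0.474 and 1.80 CPM, 26.9 and 23.6, and 12.9 and 10.2 (-5.82, SE 0.57, adjusted p = 0.000196). Its fall from day 8 to day 10 was not called without WT day 8 (log2 change -0.91), WT day 10 (-1.43) or RepB day 10 (-0.90). By list, the pace was negative in 18 of 30 tested Hox genes, 13 of 19 genes of the BMP and TGF-beta list, 10 of 11 cardiac transcription factor genes, 8 of 13 erythroid genes and 8 of 16 mesenchyme transcription factor genes, and positive in 0 of each. Of the 25 interstitial matrix genes it was positive in 4 and negative in 5, and of the 18 sarcomere genes positive in 4 and negative in 4. In the naive pluripotency list, which also holds general pluripotency genes, it was positive in 9 of 21 and negative in 2. For Pou5f1 the drop from 797 and 842 CPM on day 6 to 129 and 155 on day 8 was followed by the smaller one to day 10 (pace 1.76, SE 0.30, adjusted p = 0.00553 by edgeR).

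X-linked genes were looked at because the RepB line carries its label at Xist. Xist was at 810 CPM in WT and 1373 in RepB on day 8 and at 1018 and 1295 on day 10, and its log2 change of 0.10 (SE 0.18) did not pass the test (adjusted p = 0.713). Of 515 tested X-linked genes 76 rose (14.8%) and 35 fell (6.8%), against 12.9% and 9.35% of 13440 autosomal genes. The median X-linked change lay above the autosomal one by 0.08 in WT and 0.10 in RepB, a description with no test. For 269 X-linked genes with at least 10 allelic counts in each of the 4 libraries, the median cas share was 92.5% in WT day 8 and 93.8% in WT day 10, and 75% in RepB day 8 and 72.7% in RepB day 10. Pooled over these genes the cas share was 81.9% (95% exact Clopper-Pearson interval 81.6 to 82.3, of 40506 counts), 84.2% (83.9 to 84.5, of 56128), 67.4% (66.8 to 68, of 23704) and 65.8% (65.2 to 66.4, of 24683) in the same order, intervals that cover counting error only. In WT the share was higher on day 10 in 161 genes and lower in 105, and in RepB higher in 91 and lower in 175. The gap between the lines thus widened from day 8 to day 10 in these 4 libraries, with no repeat library to test it.

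**Figure D5:**
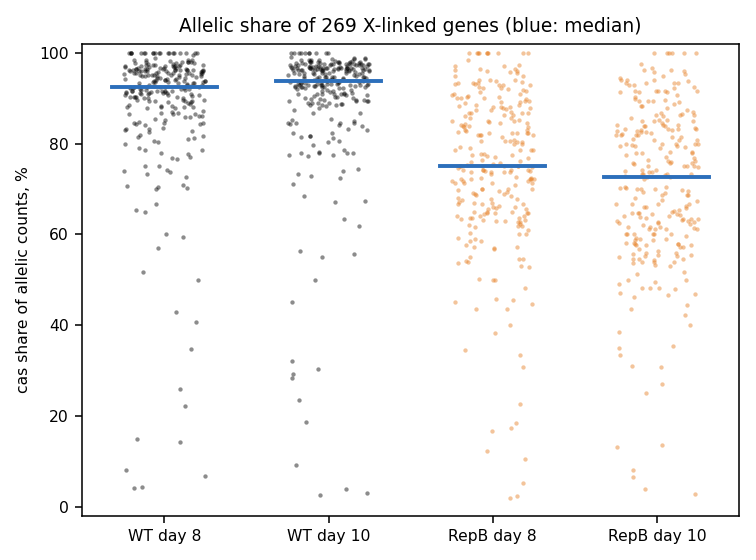
Allelic share of 269 X-linked genes. Each point is a gene's cas share of allelic counts in percent (y axis) in 1 of the 4 libraries (x axis), and blue bars mark medians of 92.5, 93.8, 75 and 72.7%. WT genes crowd near the top on both days, while RepB genes spread widely and their median is lower on day 10.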

How the data were processed

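PolyA RNA of differentiating WT and RepB ES cells was measured with a strand-marking kit. Per the submitters' processing notes the tools were Novoalign, SAMtools, bedtools, TopHat and featureCounts with the genome build mm9; versions and the counting strand setting are not given in the sources used here. The deposited table holds raw counts per gene for all reads and for reads assigned to the cas or mus allele, and a summed exon length that the authors' table lists beside them. 6 count columns of day 14 were not used, and 21 ChIP and input samples were not analysed here.

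Counts of the 10 libraries of days 5 to 10 were filtered with filterByExpr, scaled by TMM and tested with edgeR 4.0.16 (limma 3.58.1, R 4.3.3) by the quasi-likelihood test, with day as a factor and line as block (4 residual degrees of freedom, biological coefficient of variation 12.2%), Benjamini-Hochberg adjustment over 13955 genes and a threshold of 0.05. CPM are TMM-scaled. A pseudocount of 1 CPM was used per line. Nothing says that libraries came from separate cultures, so p-values measure only the spread between these samples. The fit was tested on simulated data of 13659 genes: of genes changed 1.5-fold, 2-fold and 4-fold, 22%, 88% and 100% were called. The simulation gave both lines of a day the same mean and all genes the same dispersion, and changed only genes above a minimum level. It held no line differences within a day and no exon-length trend of WT day 8. These shares are therefore not the power in the real libraries. Named were the 12 largest called rises and falls above a mean level of 2 (log2 CPM) that had 1 sign in both lines, with up to 4 called and 3 most abundant members per list, 5 genes per direction for pace, and Xist; others were picked after their values were seen. Members and lists were chosen with earlier results of these data known. Alternatives were DESeq2 1.42.0, limma-voom, other scalings, filters and designs, thinning, and leaving out each library; upper-quartile scaling and removal of the exon-length trend were added after seeing the data. 27 gene names had been turned into dates in the table.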

Additional observations from a re-analysis of the deposited data

Results flagged for a closer look

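In 9 of the named genes the lines moved in opposite directions, each by more than counting error, and the difference was not tested because each line has 1 library per day. Counting error leaves out scaling and the exon-length trend of WT day 8. In the longest bin of genes the median change was 0.38 in WT and 0.08 in RepB, and in the shortest bin -0.34 and -0.12. How far that trend enters the differences below was not tested. The change in RepB less that in WT, on log2(CPM + 1), was -2.60 for Hbb-bh1 (1.93 in WT, -0.67 in RepB), -2.24 for Hba-x (2.01 and -0.24) and -1.20 for Lrrn4 (0.61 and -0.59). It was -0.81 for Mki67, -0.50 for Tgfb1, -0.41 for Xist, -0.27 for Top2a, -0.12 for H19 and 0.45 for Cyr61.

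The median cas share of X-linked genes went up by 1.26 percentage points in WT and down in RepB (-2.27), a difference of -3.53 points that was not tested for the same reason.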

How the results depend on the processing

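The count of changed genes was within 1.5 times of 3102 under every setting run apart from leaving out 1 library, which gave 1072 to 5073. The count of genes at least 2-fold in both lines (801) also stayed within 1.5 times. Counts of a changed pace (1291) were 709 with no line block, 841 without day 7, 665 with only the 6 libraries of days 6, 8 and 10, and 511 to 3130 without 1 library; the cause was not tested. 688 genes (529 higher, 159 lower) were called in the full fit and without each of the 4 libraries in turn, and 1276 were called in the full fit, without WT day 8 and with the exon-length trend removed. Of 164 named genes that were called, 80 kept the call in every alternative run for them, and some were not tested in all alternatives. Hbb-bh1 ranged from -0.65 without WT day 8 (then called lower) to 1.89 without RepB day 8, and Lrrn4 from -0.57 without WT day 8 to 0.56 without RepB day 8 (then called higher). Days were compared within each line, which was the block of the fit, and the count was 2349 with no line block; the labels give no replicate numbers by which to pair samples otherwise. Depth limits RepB most: 3 counts equal 0.835 CPM in RepB day 8 and 0.386 in WT day 8, before TMM scaling. Where a level lies below 3 counts, as for Tbx18 and Pf4 in both libraries of day 8, the size of the fold change is uncertain.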

Other observations

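In a few genes 1 library stood far from the other 3. Rpl39 and Rpl35a, short genes of the cytosolic ribosomal protein list, were at 10.8 and 4.67 CPM in RepB day 8 against 81.4 and 38.4 in RepB day 10, while WT went from 117 to 79 and from 70.6 to 48.9. Hist1h2an, a replication histone gene, was at 42.6 CPM in RepB day 8, at 0 counts in WT day 8 and at 0.304 and 0.283 CPM in WT and RepB on day 10. None of these 3 passed the edgeR test. They were picked after their values were seen, and both ribosomal protein and histone genes have near-identical copies between which reads could be split.

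Neural genes showed no common direction: of 15 tested, 1 rose and 3 fell (1 and 2 without WT day 8, 1 and 3 with the length trend removed). Ncam1, an adhesion gene of many tissues, rose from 40.5 CPM in WT and 64.7 in RepB to 136 and 179, and Stmn2, Tubb3 and Ncan fell. The calls of Tubb3 and Ncan were lost without WT day 10 (adjusted p = 0.216 and 0.173 by edgeR) and without RepB day 10 (0.0687 and 0.0701), that of Tubb3 also without RepB day 8 (0.0524), and that of Ncan also without WT day 8 (0.186). Of 7 tested genes of kidney and body-wall mesoderm 2 rose and 2 fell, with the same counts without WT day 8 and with the length trend removed. Those that rose were Wt1 and Upk3b, and Six2 and Lhx1, genes of kidney precursors, fell from 21.8 and 10.2 CPM to 4.06 and 2.26 and from 29.2 and 11.1 to 2.74 and 2.83. Of 17 tested genes of glycolysis and hypoxia, 3 rose and 3 fell. Among those that fell was the glucose transporter gene Slc2a3, from 2875 and 3142 CPM to 1799 and 1738 (adjusted p = 0.00438 by edgeR). Its call was lost without WT day 10 and without RepB day 10.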
